A study of Mus musculus with 8 samples.

Results

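Chromatin accessibility was compared between line 113, a mouse melanoma line labelled STAT3 knockout, and line 73, a mouse melanoma line labelled wild type for STAT3. The regions described are all those of the deposited count table that passed a filter on low counts: 134068 of 148664 (90.2%), each measured in 2 libraries of line 113 and 2 of line 73. The assay was ATAC-seq, in which the Tn5 transposase cuts and tags open DNA, so that a region with more counts is more accessible. The labels call the knockout genotype Stat3∆ and the wild-type genotype Stat3fl, the name of a floxed allele. The growth protocol describes pools of cells from lymph nodes of mice whose skin melanoma appeared at about 25 to 30 weeks, while another label calls each line a clone, and each reaction took 50000 cells. Strain, sex, the origin of the melanomas, the Cre and the deleted part of Stat3 are not given in the sources used here. The titles carry p44 for line 113 and p68 for line 73 without a meaning. Levels of line 112, labelled STAT3 knockout (p18), and line 119, labelled wild type (p14), are given beside them. Each has 2 libraries, which also enter the fit. Line and genotype cannot be told apart in the comparison of lines 113 and 73, so every result below describes those 2 lines. The labels number 2 biological replicates per line, and the p-values measure the spread between those libraries, which may be technical.

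Melanocytes arise from the neural crest under transcription factors such as SOX10 and PAX3, which act on MITF, and MITF in turn activates genes of pigment synthesis. Melanoma cells are known to move between a pigmented state with high MITF activity and dedifferentiated states marked by AXL, EGFR, AP-1 factors and mesenchymal genes. STAT3 is a transcription factor that receptors of the interleukin 6 family activate through JAK kinases. The series concerns STAT3, C/EBP factors and the pigmentation genes under MITF.

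The promoters of 6 genes are shown because their start regions lay at the far ends of the comparison or belong to the melanin enzymes. Dct, Tyr, Tyrp1 and Sox6 were more accessible in line 113, and Ptgs2 and Gpr39 in line 73. Each run is the 250 bases before the start, 5′ to 3′ on the gene's strand, from RefSeq on GRCm38.p6. The positions are chr14:118052247-118052496 on the minus strand for Dct, chr7:87493513-87493762 on the minus strand for Tyr and chr4:80833963-80834212 on the plus strand for Tyrp1. They are chr7:115824711-115824960 on the minus strand for Sox6, chr1:150099781-150100030 on the plus strand for Ptgs2 and chr1:125676746-125676995 on the plus strand for Gpr39. Capitals mark letters of the MITF M-box, AP-1, C/EBP, RUNX or SOX motifs on either strand.
Dct: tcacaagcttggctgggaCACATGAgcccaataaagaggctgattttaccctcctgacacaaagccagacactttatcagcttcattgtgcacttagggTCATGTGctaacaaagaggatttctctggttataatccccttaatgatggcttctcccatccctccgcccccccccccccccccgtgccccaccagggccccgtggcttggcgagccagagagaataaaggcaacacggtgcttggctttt
Tyr: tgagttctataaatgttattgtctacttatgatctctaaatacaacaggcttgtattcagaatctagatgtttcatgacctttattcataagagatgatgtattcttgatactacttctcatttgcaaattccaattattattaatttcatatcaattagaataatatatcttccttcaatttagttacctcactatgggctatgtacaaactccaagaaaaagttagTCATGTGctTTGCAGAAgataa
Tyrp1: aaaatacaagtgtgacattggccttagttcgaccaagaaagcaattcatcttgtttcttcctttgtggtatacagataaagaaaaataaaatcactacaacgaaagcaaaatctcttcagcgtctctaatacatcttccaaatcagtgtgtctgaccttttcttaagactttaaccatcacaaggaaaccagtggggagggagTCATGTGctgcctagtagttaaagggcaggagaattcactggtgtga
Sox6: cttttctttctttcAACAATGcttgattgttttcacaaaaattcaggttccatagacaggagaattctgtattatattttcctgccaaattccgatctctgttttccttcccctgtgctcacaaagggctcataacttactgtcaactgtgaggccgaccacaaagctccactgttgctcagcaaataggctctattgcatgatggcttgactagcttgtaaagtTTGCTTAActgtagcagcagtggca
Ptgs2: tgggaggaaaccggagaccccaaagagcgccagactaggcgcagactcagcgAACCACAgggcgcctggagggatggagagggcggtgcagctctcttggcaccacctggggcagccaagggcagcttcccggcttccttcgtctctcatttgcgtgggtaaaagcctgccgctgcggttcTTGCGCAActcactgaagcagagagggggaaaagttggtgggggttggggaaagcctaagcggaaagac
Gpr39: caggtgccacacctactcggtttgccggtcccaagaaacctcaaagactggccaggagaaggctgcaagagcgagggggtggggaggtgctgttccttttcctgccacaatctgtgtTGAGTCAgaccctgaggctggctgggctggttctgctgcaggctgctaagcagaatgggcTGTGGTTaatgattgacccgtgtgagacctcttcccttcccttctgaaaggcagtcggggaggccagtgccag

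The M-box letters TCATGTG, a form of the E-box that MITF is known to bind in pigment genes, lay in the promoters of all 3 melanin enzymes. They began 151 bases before the start in Dct, with the reverse letters 232 bases before it, 22 bases before the start in Tyr and 47 bases before it in Tyrp1. The Sox6 promoter held the SOX letters AACAATG 236 bases before the start. C/EBP letters lay in promoters of both directions: TTGCAGAA 13 bases before the start in Tyr, TTGCTTAA 25 bases before it in Sox6 and TTGCGCAA 69 bases before it in Ptgs2. RUNX letters lay in Ptgs2 and Gpr39, and the Gpr39 promoter held the AP-1 letters TGAGTCA 133 bases before it. A match describes the sequence and does not show binding.

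Counts in regions summed to 5029386 and 4450860 in the libraries of line 113 and to 4367914 and 3945177 in those of line 73, and the authors' peak calls numbered 51700 to 56497 per library. Over the tested regions, which share libraries and depth, log2 levels of lines 113 and 73 correlated at r = 0.403 to 0.424, while the libraries of the same line correlated at 0.934 (line 113) and 0.933 (line 73). The pair of lines was chosen as the least correlated in these data, so these correlations, and how many regions differed, are descriptions. Levels are given in CPM, counts per 1000000 counts in regions after TMM scaling, replicate 1 first. Differences are log2 fold changes, line 113 minus line 73, with their standard error. A region was called where the adjusted p of the quasi-likelihood test of edgeR was below 0.05. Peak calls and counts come from the same libraries, so they do not support each other.

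The melanocyte label was checked at gene starts, taking for each gene the strongest region within 1 kb of its start. For genes with no listed start, here and below, either gene end stands in for it. Over the 9 of 10 melanocyte markers with a tested start region, CPM summed to 325 and 282 in the libraries of line 113 and to 56.0 and 62.3 in those of line 73. In line 73 the Mitf start alone held 36.6 CPM, while Dct, Mlana, Tyr, Tyrp1 and Sox10 each lay under 3 CPM on average. Fibroblast and stroma markers went the other way: 9 of 11 had a tested start, and their sums were 38.4 and 35.1 CPM in line 113 against 162 and 166 in line 73. Of these, Lum lay under 5 CPM in both lines, and Ccl19 and Tcf21 had no tested start region. For T and B cells 2 of 11 markers had a tested start, with sums of 2.7 to 3.3 CPM in line 113 against 9.2 to 11.1 in line 73, and the defining markers Ptprc, Cd3e and Cd79a had none. The sums were 22.8 to 31.4 against 25.2 to 28.2 CPM for macrophages and dendritic cells (3 of 9 markers) and 3.4 to 4.2 against 9.7 to 10 CPM for keratinocytes (2 of 8). They were 32 to 36.2 against 10 to 10.5 CPM for endothelium (3 of 8, with no tested start at Pecam1 or Cdh5) and 216 to 231 against 147 to 155 CPM for Schwann cells and glia (7 of 9). Among the endothelial markers, a region over the Prox1 start alone averaged 26.45 CPM in line 113 against 1.49 in line 73. Over all 55 endothelial regions, 11 were higher in line 113 and 17 in line 73. In a bulk library, fewer cells of a type and less open chromatin per cell cannot be told apart, and the part of other cell types in the results was not tested.

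Of the 134068 regions, 72630 (54.2%) were called: 36883 (27.5%) were more accessible in line 113 and 35747 (26.7%) in line 73. The differences were large, with a median size of 2.24 on the log2 scale among called regions. Differences of at least 4-fold were called in 23121 regions higher in line 113 and 19192 higher in line 73. At 32-fold and above the numbers were 1369 and 437, so the far end held more regions of line 113. Of regions higher in line 113, 62.3% lay in peaks of both its libraries and 12.1% in a peak of a line 73 library. Of those higher in line 73, 69.4% lay in peaks of both its libraries and 15.1% in a peak of a line 113 library. Over all tested regions, 31.0% lay in peaks of both line 113 libraries and 33.3% in peaks of both line 73 libraries.

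A smaller share of regions was called at gene starts than elsewhere. Within 1 kb of a gene start, 34.3% of 17286 regions were called, 17.7% higher in line 113 and 16.6% higher in line 73. Inside genes the share was 57.7% of 60099 regions (31.1% and 26.5%), and outside genes but within 50 kb it was 53.9% of 32354 (23.8% and 30.1%). Farther than 50 kb from a gene it was 60.0% of 24329 regions (30.4% and 29.6%). Counted by gene, 4257 of 13325 strongest start regions (31.9%) were called, 2326 (17.5%) higher in line 113 and 1931 (14.5%) higher in line 73. The interquartile range of the log2 fold change was 0.73 at starts and 3.41 beyond 50 kb.

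**Figure D1:**
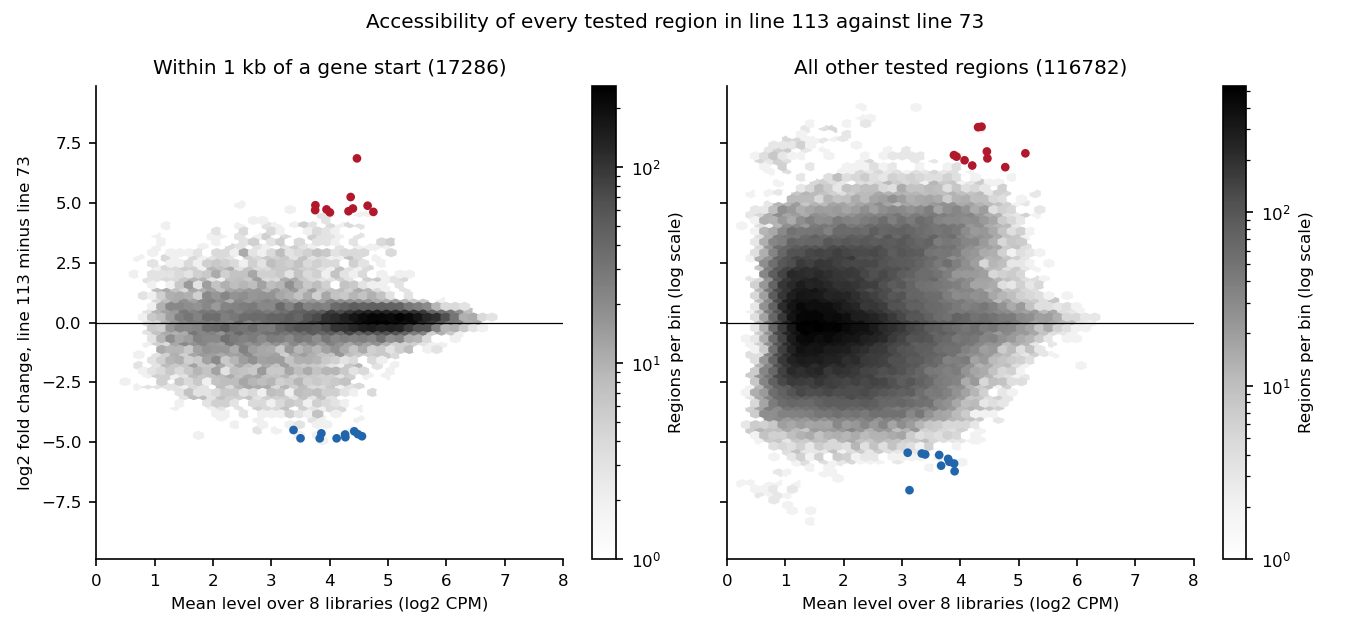
Log2 fold change of every tested region, line 113 minus line 73, against its mean level over 8 libraries in log2 CPM, for regions within 1 kb of a gene start (left) and all others (right). Shading gives the number of regions per bin on a log scale, and coloured points are the 10 largest differences in each direction among regions with at least 30 CPM in the higher line. The interquartile range is 0.73 at starts, and the other regions spread more widely.

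The region over the start of Stat3, the gene named in the genotype, was not called. This region, chr11:100939208-100939818, held 170 and 155 counts in line 113 and 152 and 101 in line 73 (log2 fold change 0.25 ± 0.20, adjusted p = 0.291). Of the 8 tested regions assigned to Stat3, 2 were higher in line 113 and 2 in line 73. The largest difference, 7047 bases outside the gene, was 64 and 50 counts in line 113 and 9 and 8 in line 73 (log2 fold change 2.61 ± 0.37, adjusted p = 6.08e-08). The smaller call toward line 73 at chr11:100887115-100887615 had 8 and 5 against 17 and 12 counts and was lost without line 113 replicate 2 (adjusted p = 0.153), without line 73 replicate 1 (0.172), in DESeq2 (0.18) and with a regional offset (0.0514). All 8 regions held counts in every library of both lines, and since the deleted part is not given, these counts do not check the genotype.

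The 10 autosomal regions with the largest positive log2 fold changes, among 2971 called regions with at least 30 CPM in line 113, lay away from gene starts except for Dct. One of them lay 14533 bases upstream of Tyr, which encodes tyrosinase, the rate-limiting enzyme of melanin synthesis. This region, chr7:87508045-87508643, held 281 and 193 counts in line 113 and 2 and 1 in line 73. Its mean level was 54.2 CPM in line 113 against 0.369 in line 73 (log2 fold change 7.08 ± 0.43, adjusted p = 2.11e-17). Line 112 had 35.5 CPM and line 119 had 44.5 CPM there, so line 73 alone was low.

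The region over the Dct start, chr14:118052215-118052856, held 306 and 230 counts in line 113 and 2 and 2 in line 73 (log2 fold change 6.87 ± 0.38, adjusted p = 2.34e-18). Dct encodes dopachrome tautomerase, the melanin enzyme that acts on dopachrome. Line 112 had 22.8 CPM and line 119 had 3.94 CPM, so both lines labelled knockout were above both labelled wild type.

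Other regions of this end lay in or near Vstm2b, Adamts3, Cenpc1, Mmp16, Fut9, Pex5l and Apob, with log2 fold changes from 6.5 near Apob to 8.20 near Vstm2b. The region 12657 bases from Vstm2b, chr7:40884756-40885354, had 192 and 193 counts in line 113 and 1 and 0 in line 73. A region inside Adamts3, which encodes a procollagen peptidase, chr5:89784556-89785112, had 204 and 177 counts in line 113 and 0 and 1 in line 73. For distant regions the gene is a label of position: that named for Apob lay 764218 bases from it and that named for Cenpc1 304953 bases away.

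At the other end, 10 of 2081 called autosomal regions with at least 30 CPM in line 73 had log2 fold changes from -5.45 to -7.02. Among them were regions of neighbouring genes of prostaglandin synthesis: Pla2g4a, whose phospholipase releases arachidonic acid from membranes, and Ptgs2, whose cyclooxygenase converts it. The region inside Pla2g4a, chr1:149846605-149847112, held 0 and 2 counts in line 113 and 139 and 128 in line 73 (log2 fold change -7.02 ± 0.48, adjusted p = 3.02e-16). The region 56453 bases from Ptgs2, chr1:150042883-150043578, held 2 and 5 against 174 and 138 counts (log2 fold change -5.54 ± 0.39, adjusted p = 5.55e-16). Line 73 stood alone at the Pla2g4a region, where line 112 had 1.32 CPM and line 119 had 1.09 CPM.

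The other 8 lay in or near Grm7, Ipo8, Slit3, Kcnc2, Dcdc2c, Pappa2, Adgrb1 and Rb1cc1. At Grm7, a glutamate receptor gene, chr6:111054245-111054941 had 1 and 3 counts in line 113 and 151 and 141 in line 73. At Slit3, which encodes a ligand of ROBO receptors, a region 55008 bases outside the gene had 4 and 2 against 159 and 183 counts. Line 119 was above line 112 at both, with 17.3 against 3.44 CPM at Grm7 and 12.7 against 2.12 CPM at Slit3. At both ends these regions kept their direction and their call under every alternative that tested them.

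At gene starts the same rule gave 10 regions in each direction, out of 1203 higher in line 113 and 745 higher in line 73 that had at least 30 CPM in the higher line. After Dct, the starts higher in line 113 were those of Rab38, Sdk1, Atp10b, Ehhadh, Gm272, Elavl2, Gjc3, Sox6 and Sdr42e1, with log2 fold changes of 4.61 to 5.25. Rab38, a small GTPase that carries melanin enzymes to the melanosome, had 184 and 156 counts in line 113 and 3 and 5 in line 73 (log2 fold change 5.25 ± 0.37, adjusted p = 6.21e-16). Sox6, a SOX family transcription factor, had 221 and 161 against 9 and 5 counts (log2 fold change 4.63 ± 0.33, adjusted p = 9.14e-16). Line 112 had 25.6 CPM and line 119 had 32.6 CPM at Sox6, so line 73 alone was low. Sdk1, a homophilic adhesion molecule of synapses, showed another order: line 113 alone was high at 45.7 CPM, against 5.31, 1.17 and 1.5 in lines 112, 119 and 73.

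The starts higher in line 73 were those of Ifi204, Ifi211, Lox, Map9, Ereg, Gpr39, Gm45871, Ptgs2, Ctsh and Apbb1ip, with log2 fold changes of -4.50 to -4.85. Ifi204 and Ifi211 belong to the interferon-inducible p200 family, a cluster of similar genes on chromosome 1 between which counts are uncertain. Ifi204 had 4 and 5 against 124 and 121 counts and Ifi211 had 6 and 6 against 161 and 163 counts. Ereg, the gene of the EGFR ligand epiregulin, had 9 and 9 counts in line 113 and 241 and 215 in line 73 (log2 fold change -4.76 ± 0.29, adjusted p = 1.37e-17). Lox encodes lysyl oxidase, which cross-links collagen, and had 6 and 6 against 176 and 149 counts (log2 fold change -4.84 ± 0.35).

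The Ptgs2 start, chr1:150099648-150100232, had 11 and 6 counts in line 113 and 206 and 189 in line 73 (log2 fold change -4.64 ± 0.32, adjusted p = 3.28e-16). Lines 112 and 119 were low too, at 3.62 and 4.12 CPM. Gpr39, a zinc-sensing receptor gene, had 6 and 11 against 188 and 220 counts (log2 fold change -4.69 ± 0.31), and lines 112 and 119 were at 4.01 and 18.2 CPM. Ctsh, a cathepsin gene, was low in line 113 alone, at 1.57 CPM against 27.8, 17.4 and 38.4 CPM in lines 112, 119 and 73. For Rab38, Atp10b, Sdr42e1, Ifi204, Lox, Ereg, Gm45871 and Ctsh no start was listed, and the region lay within 1 kb of either end of the gene. These start regions, too, kept direction and call under every alternative that tested them.

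**Figure D2:**
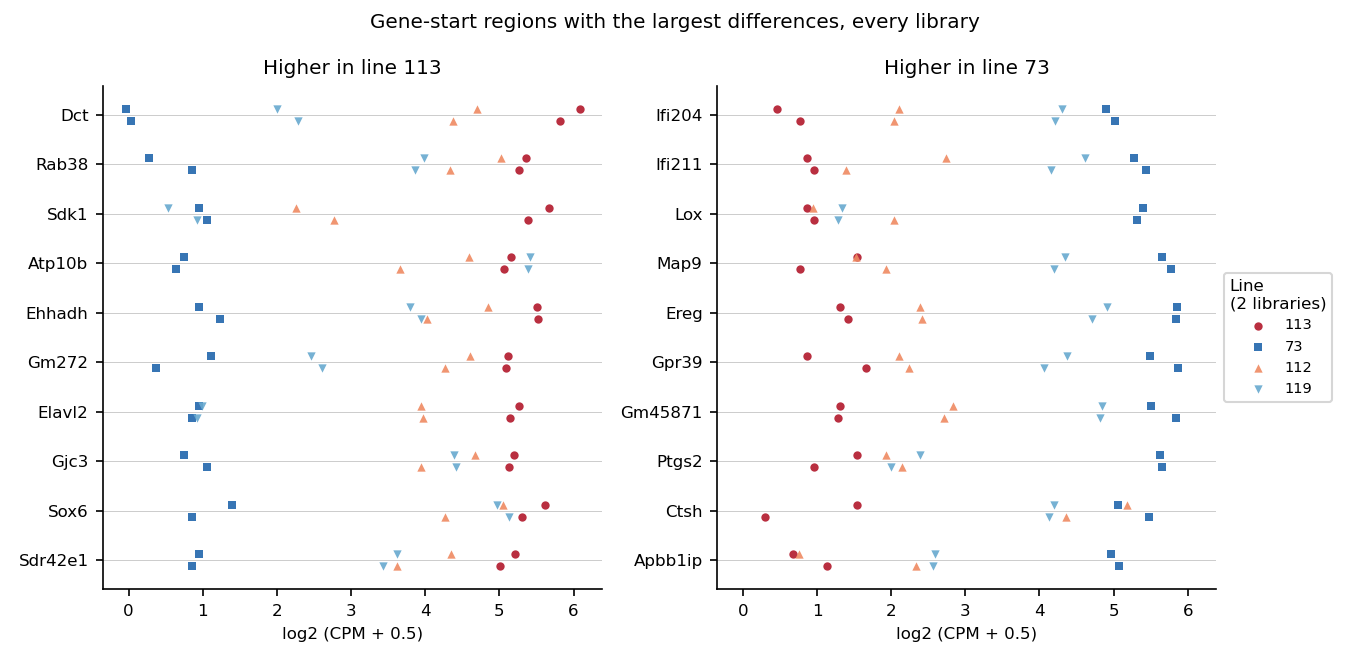
Level of the 10 gene-start regions with the largest differences in each direction, in log2 (CPM + 0.5), in all 8 libraries, 2 points per line. The genes were chosen for the gap between lines 113 and 73, so that gap describes the choice. The means of lines 112 and 119 fall between those of lines 113 and 73 at every gene but Sdk1 and Atp10b.

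Regions of the melanin enzymes were higher in line 113. Over all regions inside a gene or within 50 kb of it, 52.9% were called, 26.9% higher in line 113 and 26.0% higher in line 73, which is the background for the gene lists. For gene starts the background was 17.5% higher in line 113 and 14.5% higher in line 73. Of the 31 regions of Tyr, Tyrp1 and Dct, 25 (80.6%) were higher in line 113. None were called higher in line 73: 0 in edgeR, 0 at an unadjusted p under 0.05, 0 in DESeq2 and 0 in limma-voom, though a regional offset gave 2 and leaving out line 113 replicate 1 gave 1. Their median log2 fold change was 3.20, against 0.03 over all regions. The strongest region within 1 kb of the Tyr start, 479 bases from the gene, had 21.7 and 17.2 CPM in line 113 against 1.90 and 1.58 in line 73 (log2 fold change 3.46 ± 0.37, adjusted p = 5.45e-11). Tyrp1, a further melanin enzyme, had 18.2 and 12.1 against 1.90 and 3.42 CPM at its start (log2 fold change 2.53 ± 0.35, adjusted p = 2.41e-08). The lines did not overlap at either start, but the share of all regions without overlap was not counted.

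Among 88 regions of 9 genes for melanosome structure and ion transport, 47 (53.4%) were higher in line 113 and 8 (9.09%) in line 73. Oca2, a melanosomal transporter gene, had 15 of 16 regions higher in line 113, and its largest difference was 88 and 73 counts in line 113 and 1 and 1 in line 73 (log2 fold change 6.07 ± 0.54, adjusted p = 3.86e-13). Mlana, a melanosome antigen gene, has no listed start. At a gene end it had 11.2 and 8.96 CPM in line 113 against 0.474 and 0 in line 73 (log2 fold change 5.20 ± 0.58, adjusted p = 1.79e-10). The single tested region of Pmel, whose product forms the fibrils on which melanin is laid down, was called higher in line 113. Inside Atp7a, a copper transporter gene on the X chromosome, a region had 54 and 30 counts in line 113 and 0 and 0 in line 73, at least 25.9-fold higher against a floor of 3 counts over both libraries. The Atp7a start itself had 39.5 and 37.3 against 36.8 and 40.2 CPM and was not called.

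Genes for melanosome biogenesis and transport, many of which act in other tissues too, were split: of 130 regions, 42 (32.3%) were higher in line 113 and 43 (33.1%) in line 73, an order that changed under 3 alternatives. Beside Rab38, a region of Sytl2, which encodes a RAB27 effector, had 108 and 61 counts in line 113 and 2 and 3 in line 73. A region at Hps4, a subunit gene of a complex of organelle biogenesis, had 140 and 97 against 4 and 5 counts. A region of Lyst, a lysosome size regulator, went the other way with 2 and 0 against 24 and 36 counts.

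Lineage factors and receptors of melanocytes were mostly higher in line 113. Of 363 regions of 17 genes, 210 (57.9%) were higher in line 113 and 47 (12.9%) in line 73, with a median log2 fold change of 1.58. Sox10 had 26.6 and 28.3 CPM in line 113 against 2.37 and 3.42 in line 73 near its start (log2 fold change 3.24 ± 0.31, adjusted p = 1.98e-12), and 8 of 8 Sox10 regions were higher in line 113. Near Ednrb, the endothelin receptor gene of the lineage, 10 of 11 regions were higher in line 113, the largest difference being 123 and 100 against 0 and 2 counts. Kit, the stem cell factor receptor gene, had 8 of 12 regions higher in line 113 and 2 in line 73, the largest difference being 197 and 102 against 1 and 4 counts. At that Kit region line 113 stood alone, since line 112 had 2.61 CPM and line 119 had 1.28 CPM.

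Mitf was called in many of its regions but not in its strongest start region. That region had 35.8 and 35.4 CPM in line 113 against 35.3 and 37.9 in line 73, with overlapping libraries (log2 fold change -0.04 ± 0.20, adjusted p = 0.884). It is the strongest within 1 kb of any listed Mitf start, and levels at other Mitf starts are not given separately. Of 48 Mitf regions, 27 were higher in line 113 and 7 in line 73. The largest difference, 25183 bases outside the gene at chr6:98046543-98047208, was 156 and 128 counts in line 113 and 3 and 4 in line 73 (log2 fold change 5.18 ± 0.39, adjusted p = 4.80e-15). Pax3 and Lef1 are added as chosen after their values were seen. Pax3 had 28 of 34 regions higher in line 113 and 1 higher in line 73, and 52.2 and 53.3 against 5.45 and 6.31 CPM at its start. Near Lef1, a nuclear partner of beta-catenin, the largest difference went to line 73, with 3 and 2 against 76 and 61 counts. Over 15 Lef1 regions, however, 5 were higher in line 113 and 2 in line 73.

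**Figure D3:**
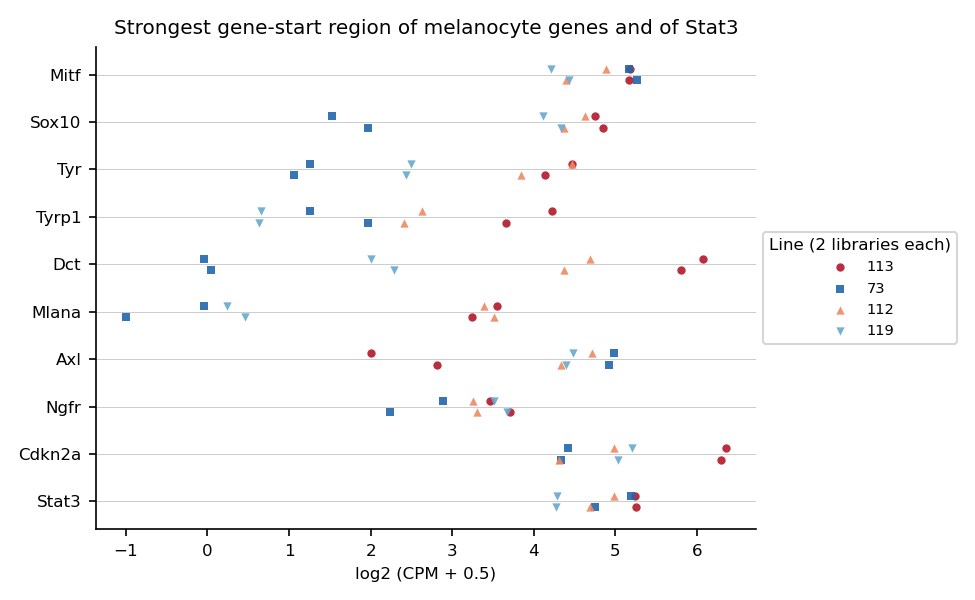
Level of the strongest region within 1 kb of the start of melanocyte genes, of Axl, Ngfr and Cdkn2a and of Stat3, in log2 (CPM + 0.5), in all 8 libraries. Lines 113 and 73 are far apart at Sox10, Tyr, Dct and Mlana and close together at Mitf and Stat3, and Axl is higher in line 73. For Mlana, with no listed start, a gene end stands in.

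The pooled list of 18 genes of neural crest or dedifferentiated melanoma cells leaned to line 73, though its members differed. Of 198 regions, 106 (53.5%) were higher there and 37 (18.7%) in line 113. Axl, a receptor tyrosine kinase gene, had 3.51 and 6.54 CPM in line 113 against 31.1 and 30.0 in line 73 at its start (log2 fold change -2.61 ± 0.28, adjusted p = 3.72e-11), and 7 of 7 Axl regions were higher in line 73. Line 113 was the only line low at the Axl start, since line 112 had 22.8 CPM and line 119 had 21.2 CPM. Egfr, the receptor gene for epiregulin, had 20 of 23 regions higher in line 73, and 1.32 and 1.94 against 15.2 and 19.2 CPM at its start. All tested regions within 5 Mb of its largest difference had a median log2 fold change of -0.93, so the surroundings leaned to line 73 too. The ligand gene Nrg1 had 26 of 37 regions higher in line 73, the largest difference being 2 and 1 against 91 and 62 counts.

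Every called region was higher in line 113 at Foxd3, Gas6, Nes, Ngfr, Sox2, Sox4 and Tfap2c, with 1 to 3 called at each. At Axl, Egfr, Inhba, Nrg1, Pdgfrb, Sox9 and Wnt5a every called region was higher in line 73, with 4 to 26 at each. Aqp1, Gfra2, Ror2 and Tnc had calls in both directions. The nerve growth factor receptor gene Ngfr had 10.5 and 12.6 CPM in line 113 against 6.88 and 4.21 in line 73 at its start (log2 fold change 1.04 ± 0.31, adjusted p = 0.00402), and 3 of 7 Ngfr regions were higher in line 113 and 0 in line 73. A region 27706 bases from Tnc, the gene of the matrix protein tenascin-C, had 221 and 227 counts in line 113 and 3 and 5 in line 73 (log2 fold change 5.66 ± 0.36, adjusted p = 4.75e-17), whereas the Tnc start was higher in line 73 with 1.54 and 2.42 against 13.3 and 13.4 CPM. Over 21 Tnc regions, 6 were higher in line 113 and 8 in line 73. Inside Ror2, a WNT5A receptor gene, a region had 32 and 29 against 1 and 1 counts, but over 18 Ror2 regions 8 were higher in line 113 and 10 in line 73. Pdgfrb and Foxd3 were chosen after their values were seen. Pdgfrb, a platelet-derived growth factor receptor gene of stromal cells, has no listed start. At a gene end it had 3.07 and 4.12 against 43.4 and 46.8 CPM (log2 fold change -3.65 ± 0.28), and 7 of 8 Pdgfrb regions were higher in line 73. Foxd3, a factor of the early crest, was higher in line 113 with 47.6 and 46.7 against 5.93 and 8.94 CPM at its start (log2 fold change 2.67 ± 0.23).

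The 13 genes of EMT factors and cadherins had 54 of 206 regions higher in line 113 and 53 in line 73, an order that changed under 11 of the 13 alternatives run on the lists. The largest differences were at cadherin genes, which encode adhesion molecules: a Cdh2 region had 132 and 109 counts in line 113 and 1 and 1 in line 73 and a Cdh1 region had 190 and 141 counts in line 113 and 4 and 7 in line 73. Near Prrx1, a mesenchymal homeobox gene, a region had 97 and 50 against 3 and 2 counts, while the Prrx1 start had 1.32 and 0.727 against 15.2 and 14.5 CPM and was called higher in line 73. The starts of Twist1, Twist2 and Snai1, mesenchymal transcription factor genes chosen after their values were seen, were higher in line 73. Twist2 had 23.0 and 20.6 against 61.4 and 51.3 CPM (log2 fold change -1.37 ± 0.20, adjusted p = 1.09e-07). Snai2 was higher in line 113, with 50.7 and 45.3 against 29.9 and 27.6 CPM (log2 fold change 0.74 ± 0.19), and its adjusted p was 0.0848 with a regional offset.

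Collagen regions were more often higher in line 73: of 480 regions of 30 genes, 193 (40.2%) were higher there and 111 (23.1%) in line 113. Of 25 collagen starts, 15 were higher in line 73 and 3 in line 113, where the shares over all gene starts were 14.5% and 17.5%. The single regions with the largest differences mostly went to line 113. In Col9a1, a cartilage collagen gene, 8 of 10 regions were higher in line 113, the largest difference being 119 and 114 against 1 and 2 counts. Regions of Col12a1 and Col8a1 had 63 and 51 against 0 and 2 counts and 63 and 27 against 0 and 2 counts, and a Col22a1 region had 2 and 2 against 62 and 78 counts.

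The collagen starts that follow were chosen after their values were seen, from those higher in line 73. They are examples and do not bear on the lean. The fibrillar collagen gene Col1a2 had 1.32 and 1.45 CPM in line 113 against 30.8 and 29.4 in line 73 at its start (log2 fold change -4.42 ± 0.36, adjusted p = 4.07e-14). Col5a2 had 0.439 and 1.70 against 27.5 and 28.4 CPM and the basement membrane gene Col4a1 had 7.46 and 5.09 against 48.4 and 40.2 CPM. Fibroblast marker starts, some of them collagens, moved with these genes: 8 of 9 were higher in line 73, with sums of 162 and 166 CPM there against 38.4 and 35.1 in line 113. Their part in the collagen counts was not tested.

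Of 153 regions of proteases and their inhibitors, 57 (37.3%) were higher in line 73 and 42 (27.5%) in line 113. Lox led toward line 73, as described above for its start. Inside Mmp16, a membrane metalloprotease gene, a region had 65 and 30 counts in line 113 and 0 and 3 in line 73, and near the aggrecanase gene Adamts5 a region had 107 and 60 against 5 and 2 counts. Plau, the urokinase gene, was chosen after its values were seen and has no listed start. At a gene end it had 1.76 and 1.94 CPM in line 113 against 27.3 and 23.1 in line 73 (log2 fold change -3.76 ± 0.36, adjusted p = 2.43e-12).

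Cytokine and chemokine genes had 81 of 147 regions (55.1%) higher in line 73 and 24 (16.3%) in line 113. Ccl2, the monocyte chemoattractant gene, had 11 of 12 regions higher in line 73, and the largest difference, 23345 bases from the gene, was 3 and 0 counts in line 113 and 61 and 66 in line 73 (log2 fold change -5.42 ± 0.52, adjusted p = 2.42e-12). In its neighbour Ccl7 a region had 2 and 1 against 46 and 58 counts. Near Il33, an alarmin gene, a region had 1 and 1 against 58 and 60 counts (log2 fold change -5.84 ± 0.52). Inside the chemokine gene Cxcl5 the largest difference went to line 113, with 27 and 20 against 1 and 0 counts.

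Further starts were chosen after their values were seen. The neutrophil chemokine gene Cxcl1 had 2.63 and 0.969 CPM in line 113 against 35.3 and 36.8 in line 73 (log2 fold change -4.28 ± 0.34, adjusted p = 1.53e-14). Ccl5, a T cell chemoattractant gene, was higher in line 113, with 13.4 and 23.0 against 1.19 and 1.05 CPM (log2 fold change 3.98 ± 0.41). The start of Il6, whose receptor acts through STAT3, had 12.5 and 14.3 against 15.9 and 17.9 CPM and was not called (log2 fold change -0.33 ± 0.25, adjusted p = 0.279).

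Genes of the STAT3 pathway had 46 of 178 regions (25.8%) higher in line 113 and 58 (32.6%) in line 73, near the background. The largest differences lay in both directions. Near Jak1, a kinase gene of the pathway, a region had 69 and 63 counts in line 113 and 2 and 2 in line 73, and inside Lifr, the leukaemia inhibitory factor receptor gene, a region had 118 and 112 against 4 and 6 counts. Inside Socs2, a feedback inhibitor gene, a region had 48 and 53 against 3 and 2 counts, and near the kinase gene Jak2 a region had 1 and 0 against 18 and 8 counts.

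At the 22 tested starts of this list, 5 were higher in line 73 and none in line 113: 0 in edgeR, 0 at an unadjusted p under 0.05, 0 in DESeq2 and 0 in limma-voom. Over all gene starts 14.5% were higher in line 73 and 17.5% in line 113. With the 4 libraries alone the Lifr and Tyk2 starts were called higher in line 113, and Lifr also with a regional offset. The 5 higher in line 73 were Osmr, Jak3, Socs3, Il6ra and Stat6. The oncostatin M receptor gene Osmr had 1.10 and 3.15 CPM in line 113 against 26.3 and 28.9 in line 73 (log2 fold change -3.71 ± 0.35, adjusted p = 2.23e-12). The feedback inhibitor gene Socs3 had 25.2 and 22.0 against 41.5 and 41.8 CPM (log2 fold change -0.81 ± 0.20, adjusted p = 4.75e-04). The call of Stat6 was lost without line 113 replicate 2 (adjusted p = 0.0723), without line 73 replicate 1 (0.189), in DESeq2 (0.0663) and with a regional offset (0.338). Il6st, the shared receptor subunit gene of the family, had 48.3 and 51.6 against 49.1 and 47.9 CPM and was not called.

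C/EBP factor genes had 3 of 21 regions higher in line 113 and 3 in line 73. Of their 6 starts none were called: 0 in edgeR, 0 at an unadjusted p under 0.05, 0 in DESeq2 and 0 in limma-voom. Over all gene starts 31.9% were called in edgeR. The Cebpg start alone was called under other settings, higher in line 113 with the 4 libraries alone and with regions in peaks only. The Cebpb start had 48.1 and 46.7 CPM in line 113 against 50.7 and 47.3 in line 73 (log2 fold change -0.05 ± 0.18, adjusted p = 0.843). The largest differences were 26326 bases from Cebpa, with 8 and 4 against 45 and 39 counts (log2 fold change -2.90 ± 0.40, adjusted p = 2.34e-08), and 36590 bases from Cebpb, with 90 and 58 against 10 and 11 counts (log2 fold change 2.68 ± 0.34).

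Genes of AP-1 factors, dimers of FOS, JUN and ATF family proteins, had 36 of 89 regions (40.4%) higher in line 73 and 18 (20.2%) in line 113, with equal numbers (13 and 13) among regions with at least 50 counts on average. At 11 tested starts, 4 were higher in line 113 and 3 in line 73, against 17.5% and 14.5% over all gene starts. A region 13095 bases from Jun, chr4:95035432-95035941, had 1 and 2 counts in line 113 and 57 and 54 in line 73 (log2 fold change -5.22 ± 0.50, adjusted p = 2.57e-12). Over 16 Jun regions, 3 were higher in line 113 and 10 in line 73. The Jun start itself was called higher in line 113, but with a regional offset it went to -0.28 and was not called. Regions near Fosl2 and Atf3 had 13 and 13 against 168 and 115 counts and 10 and 11 against 104 and 98 counts, and a region inside Batf had 6 and 5 against 61 and 77 counts. Junb and Fosb, chosen after their values were seen, differed in direction at their starts, with 24.4 and 30.0 against 54.3 and 54.7 CPM at Junb and 37.3 and 40.2 against 20.6 and 18.4 CPM at Fosb.

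The Runx factor genes had 42 of 96 regions (43.8%) higher in line 73 and 21 (21.9%) in line 113, but the largest difference of each gene went to line 113, as in Runx2 with 105 and 69 against 3 and 1 counts. TEAD and YAP genes and their targets had 62 of 199 regions (31.2%) higher in line 73 and 52 (26.1%) in line 113. Near the target gene Ankrd1 a region had 16 and 14 against 262 and 227 counts (log2 fold change -4.13 ± 0.29, adjusted p = 4.87e-16), while a region inside Vgll4, a TEAD cofactor gene, had 164 and 145 against 8 and 8 counts.

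Motif letters were counted in the 250 bases before each start of 21262 RefSeq promoters, on both strands. The MITF M-box was searched as TCATGTG, the MITF E-box as CACGTGA, AP-1 as TGANTCA and TEAD as GGAATG. RUNX was searched as TGTGGTT, SOX as AACAATG, C/EBP as TTGCNNAA and STAT as TTCNNNGAA. CRE was searched as TGACGTCA, the CCAAT box as CCAAT and the GC box as GGGCGG, and matches of different motifs may overlap. The AP-1 letters were in 15.3% of 477 promoters whose start lay in a called region at least 4-fold higher in line 73 and in 3.60% of 361 promoters at least 4-fold higher in line 113. They were in 4.65% of the 11888 promoters with a start in a tested region and in 6.13% of all promoters.

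The SOX letters were in 4.43% of the promoters at least 4-fold higher in line 113, in 1.47% of those higher in line 73, in 1.57% of tested ones and in 2.84% of all. The M-box letters were in 2.49% and 2.73% of the 2 groups, against 1.49% of tested and 2.62% of all promoters. The MITF E-box letters were in 4.43% and 2.52% of them, against 4.95% of tested and 3.65% of all promoters. The STAT letters were in 5.26% and 5.87% of the 2 groups, against 5.49% of tested and 6.58% of all promoters. RUNX letters were in 3.32% and 5.87%, against 2.83% of tested and 3.82% of all. TEAD letters were in 11.1% and 14.3%, against 10.2% and 11.7%. For CRE the shares were 0.831% and 1.47%, against 2.88% and 1.92%. For the CCAAT box they were 31.6% and 36.3%, against 36.0% and 35.4%. The C/EBP letters were in 7.20% of the promoters at least 4-fold higher in line 113 and 11.3% of those higher in line 73, against 6.86% of tested and 9.09% of all promoters. GC boxes were in 49.9% and 45.9% of the 2 groups and in 62.5% of tested promoters, so the groups differed from tested promoters in GC-rich letters as well. These shares are descriptions with no test.

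Genes of axon guidance and neuronal adhesion were more often higher in line 113. Of 799 regions of axon guidance genes, 307 (38.4%) were higher in line 113 and 200 (25.0%) in line 73. Of 1063 regions of neuronal adhesion and synapse genes, 344 (32.4%) were higher in line 113 and 207 (19.5%) in line 73. Inside the netrin receptor gene Unc5c a region had 40 and 28 counts in line 113 and 0 and 0 in line 73, at least 20.9-fold higher, and inside Robo2, a SLIT receptor gene, a region had 85 and 76 against 0 and 1 counts. Near Sema3a, a semaphorin gene, a region had 104 and 72 against 1 and 1 counts. Near the contactin gene Cntn6 a region had 55 and 64 against 0 and 0 counts, at least 36.6-fold higher. Chosen after its values were seen, a region inside the contactin-associated gene Cntnap4 had 0 and 0 counts in line 113 and 12 and 15 in line 73, at least 9.75-fold lower in line 113. Within the guidance list, the ligand gene Slit3 had 24 of 49 regions higher in line 73 and 7 in line 113, while the receptor gene Robo1 had 19 of 27 higher in line 113 and 0 in line 73.

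Several calls went the same way in some genes and both ways in others. Of 7223 autosomal genes with at least 5 tested regions, 292 had at least 5 called regions all higher in line 113 and 285 had at least 5 all higher in line 73. A larger number, 658, had at least 5 in each direction. Regions were assigned to the gene they lay in or to the nearest within 50 kb. Among autosomal genes whose called regions all went the same way, the most regions higher in line 113 were assigned to Pdzrn3 (35 of 43), Sox6 (33 of 47), Slc35f1 (30 of 43), Ptprj (25 of 34), Fbxl7 (22 of 29), Igsf11 (20 of 26), Bmp7 (19 of 21), Robo1 (19 of 27), Cadm1 (19 of 29) and Pid1 (19 of 29). Bmp7, a bone morphogenetic protein gene, had a median log2 fold change of 2.84. The most higher in line 73 were assigned to Nrg1 (26 of 37), Egfr (20 of 23), Grip1 (20 of 29), Osbpl3 (19 of 22), Btbd11 (19 of 23), Myo1d (18 of 27), Cacna2d3 (18 of 41), Ptgs2 (16 of 17), Emp1 (16 of 22) and Cdh18 (15 of 19). Only 1 of the 17 Ptgs2 regions, 6 of the 22 of Emp1 and 11 of the 21 of Bmp7 lay inside the gene. The medians for Nrg1, Egfr and Ptgs2 were -2.50, -3.29 and -3.59 on the log2 scale.

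The longest runs of consecutive tested regions called in the same direction spanned whole loci. Higher in line 113 were 28 regions over 1713 kb of chromosome 19 assigned to Sorcs1 and Ins1, 26 regions over 1783 kb in Ptprd and 19 regions over 424 kb in Fhit. Levels in these runs were low, with medians of 5.17 to 7.67 CPM in line 113 against 0.36 to 0.62 in line 73. Around Ptprd, a receptor phosphatase gene, all tested regions within 5 Mb had a median log2 fold change of 2.15, against 0.38 and 0.03 around the other 2 runs. With an offset for such regional shifts the Ptprd start region, called at log2 fold change 1.74 ± 0.44, went to -0.0041.

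Higher in line 73 were 27 regions over 174 kb of the Hoxc cluster, 26 regions over 1447 kb around Mmut, Ptchd4 and Opn5, and 20 regions over 183 kb from Pla2g4a to Ptgs2. Their medians were 6.57 to 13.5 CPM in line 73 against 0.57 to 1.86 in line 113. The run from Pla2g4a to Ptgs2 had a median log2 fold change of -3.65. All tested regions within 5 Mb had a median of -0.61 around the Hoxc run, against -0.167 and -0.174 around the other 2.

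**Figure D4:**
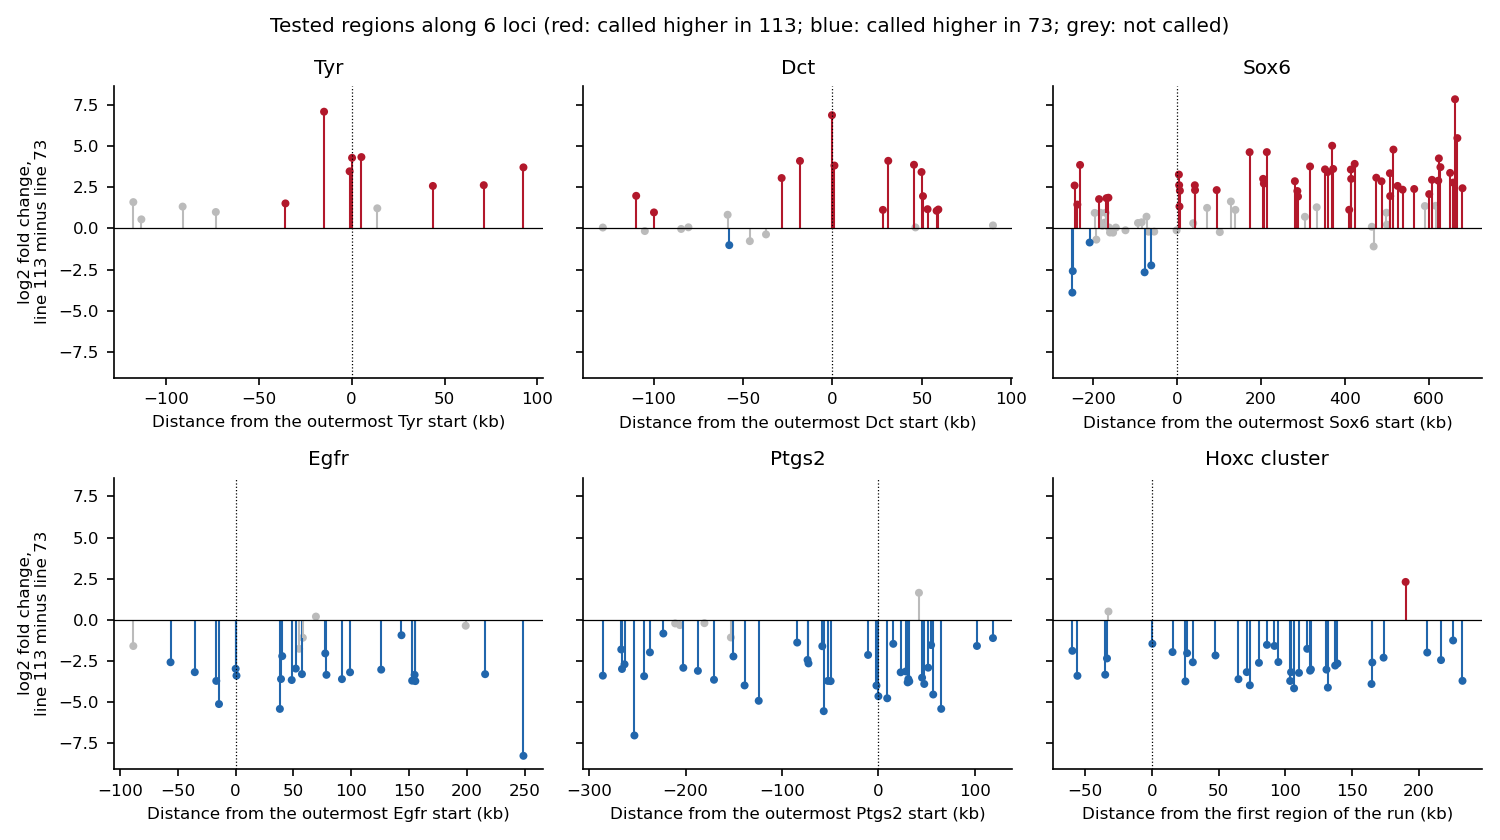
Log2 fold change, line 113 minus line 73, of each tested region along 6 loci, against distance in kb from the gene's outermost start (for the Hoxc cluster, from the first region of its run). Red is called higher in line 113, blue called higher in line 73 and grey not called. Called regions are all red at Tyr and all blue at Egfr and Ptgs2, Dct and Sox6 are mostly red with blue regions before the start, and a red region lies beyond the Hoxc run.

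Hox genes, which specify position along the body axis, had 65 of 98 regions (66.3%) higher in line 73 and 5 (5.10%) in line 113, with a median log2 fold change of -1.65. At 30 tested starts, 21 were higher in line 73 and 1, Hoxd13, in line 113, against 14.5% and 17.5% over all gene starts. The Hoxd13 call was lost without line 113 replicate 2 (adjusted p = 0.279), without line 73 replicate 1 (0.107) or 2 (0.0771) and in DESeq2 (0.108). At Hoxc6, chr15:103002053-103002585 had 6 and 2 counts in line 113 and 69 and 66 in line 73 (log2 fold change -4.16 ± 0.40, adjusted p = 3.74e-12). Regions of Hoxc4, Hoxc10 and Hoxc13 had 7 and 5 against 105 and 90 counts, 2 and 6 against 63 and 56 counts and 13 and 5 against 118 and 105 counts. Over the Hoxc run, line 73 alone was high, with a median level of 13.5 CPM against 1.86, 2.95 and 1.56 in lines 113, 112 and 119.

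Among cell cycle genes and tumour suppressors, 39 of 106 regions (36.8%) were higher in line 113 and 25 (23.6%) in line 73. Cdkn2a, a tumour suppressor locus often lost in melanoma, had 81.4 and 78.2 CPM in line 113 against 20.9 and 19.7 in line 73 at its start (log2 fold change 1.97 ± 0.20, adjusted p = 1.16e-11). Line 112 had 25.2 CPM and line 119 had 34.4 CPM, so line 113 alone was high. The median log2 fold change within 5 Mb of it was 0.34. Inside Ccnd3, a cyclin gene, a region had 41 and 43 against 3 and 1 counts, and near the kinase gene Cdk6 a region had 1 and 0 against 27 and 21 counts.

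Other lists stood nearer to the background or moved less evenly. Genes of MAPK feedback and ETV factors had 68 of 187 regions (36.4%) higher in line 113 and 43 (23.0%) in line 73. The largest of these was near Dusp6, a phosphatase gene of ERK feedback, with 284 and 255 counts in line 113 and 8 and 8 in line 73 (log2 fold change 4.94 ± 0.29, adjusted p = 5.50e-18). TGF-beta and BMP genes had 105 of 360 regions higher in line 113 and 121 in line 73, and Wnt genes 81 and 89 of 299, orders that changed under 1 and 2 alternatives. Near Wnt4 a region had 67 and 74 against 0 and 0 counts, at least 43.4-fold higher, and inside Tgfbr3, a TGF-beta co-receptor gene, a region had 5 and 4 against 124 and 110 counts. Integrin and laminin genes had 131 of 384 regions (34.1%) higher in line 113 and 105 (27.3%) in line 73, and near the integrin gene Itga4 a region had 42 and 29 against 0 and 0 counts, at least 21.9-fold higher.

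Among 129 regions of STAT3 survival and growth targets, 28 were higher in line 113 and 36 in line 73. Inside Bcl2l1, which encodes the survival protein BCL-XL, a region had 225 and 180 against 13 and 8 counts, and near Myc a region had 7 and 4 against 67 and 42 counts. Antigen presentation genes had 7 of 61 regions higher in line 113 and 16 in line 73. Inside Nlrc5, an activator gene of MHC class I genes, a region had 2 and 2 against 40 and 20 counts.

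The balance between directions varied by chromosome. Median log2 fold changes of autosomes ran from -0.40 on chromosome 15 to 0.38 on chromosome 16, and that of the X chromosome was 0.41. Of 3203 X regions, 1167 (36.4%) were higher in line 113 and 683 (21.3%) in line 73. Regions outside peaks had a median of 0.62 on X and of -0.11 on chromosome 10 to 0.55 on chromosome 19, and the part of DNA copy number in these shifts was not tested. On X the smallest p-values belonged to regions near H2al1j and Ap1s2 and at the start of Shroom2, an actin regulator gene, higher in line 113, and to the starts of Rbmx, Gpr173 and Elf4, higher in line 73. Rbmx, an RNA-binding protein gene, had 2 and 6 counts in line 113 and 135 and 132 in line 73 (log2 fold change -5.13 ± 0.37, adjusted p = 1.15e-15). Line 112 had 17.9 CPM and line 119 had 24.7 CPM at Rbmx, so line 113 alone was low.

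The ribosomal protein genes, taken as a reference, had 27 of 179 regions (15.1%) higher in line 113 and 26 (14.5%) in line 73, an order that changed under 7 alternatives. At their 69 starts, 12 were higher in line 113 and 1 in line 73, with a median log2 fold change of 0.18 against 0.09 over all gene starts. Of all gene starts, 17.5% were higher in line 113 and 14.5% in line 73.

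**Figure D5:**
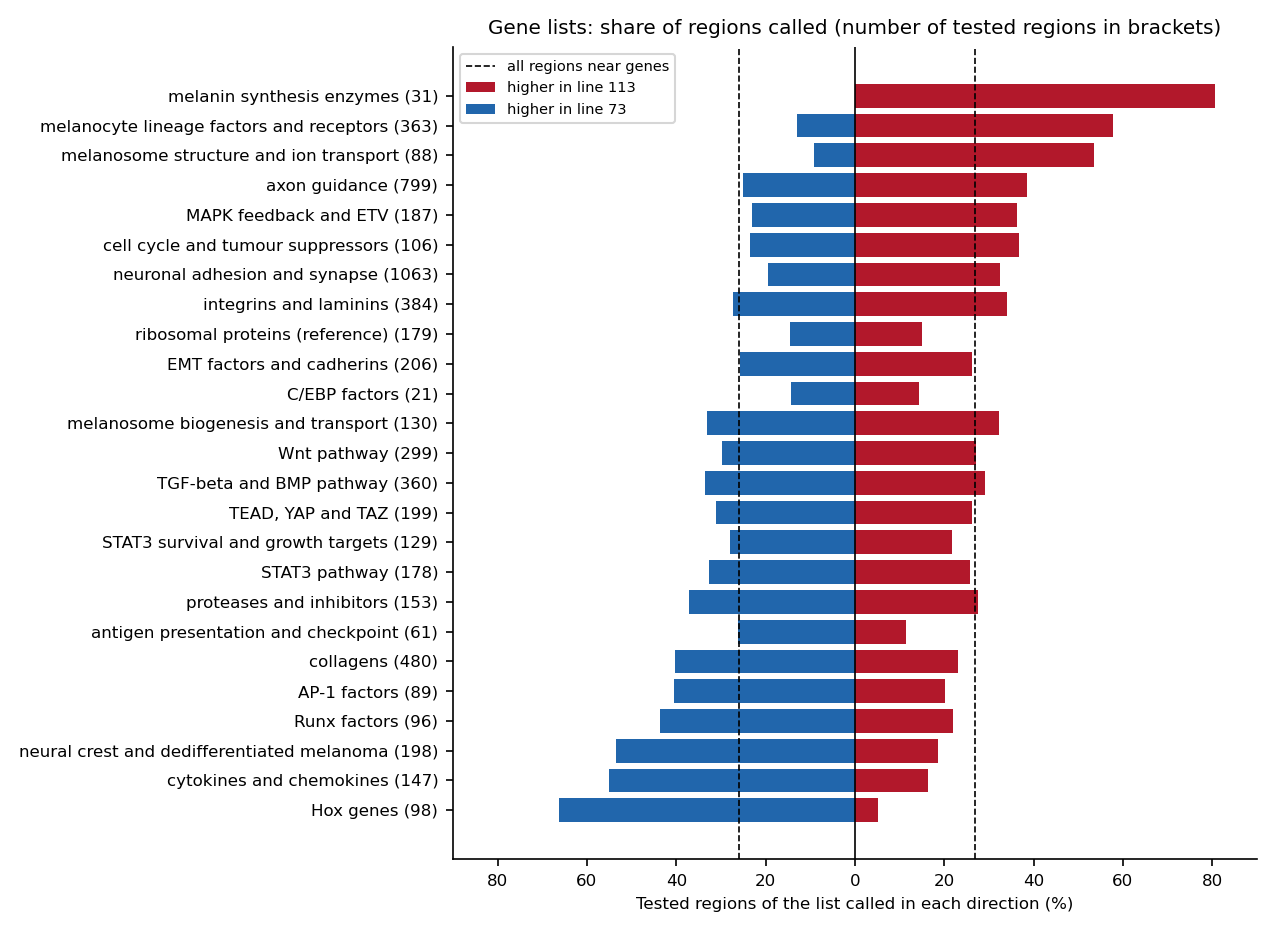
Share of the tested regions of each gene list called higher in line 113 (red, right) and higher in line 73 (blue, left), in percent, with the number of tested regions in brackets and dashed lines at the shares over all regions near genes (26.9% and 26.0%). Melanin enzymes have 80.6% higher in line 113 and Hox genes 66.3% higher in line 73, and ribosomal protein genes lie below the dashed lines on both sides.

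The other 2 lines, line 112 labelled STAT3 knockout and line 119 labelled wild type, share no library with this comparison, though all 4 lines share the estimate of spread. Between them, 28232 regions (21.1%) were higher in line 112 and 35994 (26.8%) in line 119. Regions higher in both line 113 and line 112 numbered 13192, which was 35.8% of the line 113 list and 46.7% of the line 112 list, while 6627 regions of the line 113 list were called in the opposite direction. Regions higher in both line 73 and line 119 numbered 13496, which was 37.8% of the line 73 list and 37.5% of the line 119 list, while 3854 of the line 73 list were called in the opposite direction. Dct and Tyr show the range: at the Dct start line 112 was above line 119, and at the region upstream of Tyr both were high.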

How the data were processed

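The deposited table holds raw counts of 148664 regions (501 to 3708 bp) in 8 ATAC-seq libraries, and the deposited peak list of each library gives a score, a fold over background and −log10 p and q values per peak. Bowtie2 2.2.4, Picard 1.118, MACS2 2.1.1.20160309 and the build mm10 are named, without roles, per the submitters' processing notes. Whether counts are reads, fragments or cut sites, and whether they were shifted or deduplicated, is not given in the sources used here. Coordinates are 1-based on mm10.

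Regions were filtered with filterByExpr by line (minimum count 10, minimum total 15), scaled by TMM and tested with edgeR 4.0.16 in R 4.3.3 (glmQLFit with robust estimation, glmQLFTest, two-sided) on all 8 libraries with a mean per line. P-values were adjusted by Benjamini-Hochberg over all 134068 regions. The standard error is the log2 fold change divided by the square root of F. The test was tested on simulated data. Correlations are between log2 CPM values (prior count 2).

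A region was assigned to the protein-coding gene it lies in or else to the nearest, within 50 kb for the lists. Start regions lie within 1 kb of a RefSeq start, or of either gene end for genes without a listed start (17491 of 21883 genes have one). Named are the 10 autosomal and 10 start regions with the largest differences per direction (at least 30 CPM in the higher line), 3 X regions, 10 genes and 3 runs per direction, and up to 4 genes per list by their largest called difference, beside Stat3, Mitf, Sox10, Tyr, Tyrp1, Dct, Pmel, Mlana, Axl, Ngfr and Cdkn2a. A region that this rule names is not reported here. Other list genes were chosen after their values were seen. The members and lists were chosen with earlier results of these data known. A line at 0 was given a floor of 3 counts over its 2 libraries, which covers counting error only. Alternatives were DESeq2 1.42.0, limma-voom (limma 3.58.1), other scalings and filters, a replicate block and fewer libraries.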

Additional observations from a re-analysis of the deposited data

How the results depend on the processing

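Of the alternatives, only the restriction to 24137 regions with at least 50 counts on average moved the 72630 calls by over 1.5 times: it gave 14323 (7641 higher in line 113 and 6682 in line 73), with fewer regions tested. DESeq2 gave 55610 calls, limma-voom 71022, library totals 73506, no filter 75254, a regional offset 71732 and the 4 libraries alone 70116. Leaving out each library in turn gave 63296 to 65119. No setting moved the median log2 fold change of all regions by over 0.1.

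Same-numbered replicates do not pair the lines (their deviations correlated at 0.0044 between lines 113 and 73), and the fit with the replicate block gave 71793 calls (36476 higher in line 113 and 35317 in line 73).

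Of 459 called regions named or listed, 381 kept direction and call under every alternative that tested them and 76 lost the call under at least 1, while 90 of the regions not called were called under at least 1. The regional offset changed the sign of 6 start regions, to -0.50 at Zeb2, -0.28 at Jun, 0.039 at Maff, 0.21 at Spred2, -0.0041 at Ptprd and -0.17 at Adamts1. With the offset only Zeb2 was called (adjusted p = 0.0227 in edgeR), and the others were not. The cause was not tested. AP-1 regions higher in line 113 fell from 18 to 10 or 11 when any library of either line was left out. Cell cycle regions higher in line 73 fell to 15 in DESeq2. Hox regions higher in line 113 fell to 3 in DESeq2, without line 113 replicate 2 and without line 73 replicate 2. STAT3 target regions higher in line 73 fell to 23 without line 73 replicate 1, and melanosome structure regions higher in line 73 fell to 5 without line 113 replicate 2. Ribosomal protein regions higher in line 113 fell to 15 without line 113 replicate 2 and to 14 without line 73 replicate 2, and those higher in line 73 fell to 15 in DESeq2. Depth limits regions at a few counts, whose standard errors are wider.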
